A study of Mus musculus with 20 samples.

Results

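The 8 genes whose proteins serve as standard markers of extracellular vesicles were followed here in small RNA libraries of cauda epididymosomes, the vesicles that the epithelium of the distal epididymis releases into the lumen where sperm are stored. They are the tetraspanins Cd9, Cd63, Cd81 and Cd82, the ESCRT proteins Tsg101 and Pdcd6ip, and the flotillins Flot1 and Flot2. They were chosen by name, as the rows typed protein_coding under these symbols, and all 8 had a row in both count tables, among 18357 protein_coding rows of 72034 features in one table and 16649 of 59035 in the other. The libraries came from 9-month-old males, 5 Control males from undisturbed litters and 5 MSUS males. MSUS pups had been separated from the dam for 3 h per day at unpredictable times over the first 2 weeks of life, and the dams were stressed by forced swim or restraint. The labels give no strain and no litter, so the p-values reflect only how far these animals differ among themselves. Sperm were removed by swim-up before ultracentrifugation, and every library was sequenced in 2 runs, which gives 20 samples and a table per run. The tables are named by their labels, as the selected table (run 2, labelled with size selection for miRNAs) and the unselected table (run 1, labelled without). Their contents go against these labels: the miRNA share was 10.9 to 17.0% in the selected table and 52.4 to 72.2% in the unselected one, so a direction between the tables refers to the labels only.

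Tetraspanins are proteins with 4 membrane-spanning segments that gather partner proteins into membrane patches, and a Cys-Cys-Gly motif in their large extracellular loop marks the family. ESCRT complexes bud vesicles inward into the multivesicular body. Tsg101 is a subunit of ESCRT-I that binds ubiquitinated cargo, and Pdcd6ip encodes ALIX, which links cargo and syntenin to the late ESCRT-III filament. Flotillins coat the inner face of cholesterol-rich membrane. In the epididymis, CD9-bearing vesicles are known to bind maturing sperm. The libraries measure RNA, so the counts below are fragments of these mRNAs in the vesicle preparation and not the marker proteins.

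The 45 coding bases around the family motif are shown for the 4 tetraspanins because they are the part that these genes have in common. The capitals are the Cys-Cys-Gly codons. Cd9 and Cd82 use the same codons for the motif, Cd81 and Cd63 each use others, and the flanking bases differ among all 4 genes. Each window crosses an intron, and the coordinates (GRCm38, GENCODE vM21) give its outer bounds.
Cd9, chr6:125462171-125462338, minus strand, codon 150 of 226: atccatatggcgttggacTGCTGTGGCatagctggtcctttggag
Cd81, chr7:143066341-143066693, plus strand, codon 156 of 236: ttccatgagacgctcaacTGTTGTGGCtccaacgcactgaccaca
Cd63, chr10:128912052-128912193, plus strand, codon 145 of 238: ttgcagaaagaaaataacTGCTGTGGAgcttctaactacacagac
Cd82, chr2:93420723-93421838, minus strand, codon 149 of 266: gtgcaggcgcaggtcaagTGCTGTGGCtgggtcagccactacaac

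Other members cannot be told apart from a copy so easily. Tsg101 has a processed pseudogene, Tsg101-ps, which matches 994 of 1167 coding bases (85.2%) in a single ungapped register. A 60-base stretch of the coding sequence is shown because only the 2 capitals separate gene from pseudogene.
Tsg101, chr7:46892501-46892560, minus strand: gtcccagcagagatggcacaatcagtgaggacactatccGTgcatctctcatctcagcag
Tsg101-ps, chr15:62981285-62981344, plus strand: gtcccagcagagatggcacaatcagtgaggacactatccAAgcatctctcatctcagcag
Of all 20-base words in the exons of Tsg101, 43.1% also occurred in the transcripts of another gene, and 42.5% in Tsg101-ps. The share was 38.3% for Cd63 (37.6% in Cd63-ps) and 16.0% for Cd9 (15.6% in Cd9-ps). It was 1.74% for Cd81, below 0.2% for Pdcd6ip (0.168%), Flot2 (0.147%) and Flot1 (0.0935%), and 0 for Cd82. Short fragments of Tsg101, Cd63 and Cd9 can therefore be split with these copies, and their values are uncertain to that extent.

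The members lie on 7 chromosomes. Cd9 (chromosome 6, 125460266 to 125494791, minus strand) overlaps an antisense RNA and a processed transcript on the other strand, Cd82 (chromosome 2, 93419111 to 93463140, minus) overlaps Mir7001 and Gm10804, Cd81 (chromosome 7, 143052739 to 143067934, plus) overlaps R74862, and Tsg101 (chromosome 7, 46888949 to 46919969, minus) overlaps the pseudogene Gm45628. Cd63 (chromosome 10, 128900989 to 128912822, plus), Pdcd6ip (chromosome 9, 113651744 to 113708259, minus), Flot1 (chromosome 17, 35823230 to 35832791, plus) and Flot2 (chromosome 11, 78037931 to 78060434, plus) overlap no other annotated gene in GENCODE vM21. Use of the strand in counting was not given in the sources used here, so reads of overlapping genes cannot be told apart.

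Library totals ran from 1872084 to 3647956 estimated counts (selected table) and from 215231 to 871461 (unselected table). mRNA rows (typed protein_coding) took 7.48 to 31.6% and 5.89 to 13.6% of them. Control 9, Control 11 and MSUS 14 stood apart in the selected table by a low tRNA share and the highest mRNA shares, and results that rest on them are given without them. The epididymal label was checked against 19 genes of the epididymal epithelium, which together stood at 61415 to 109841 mRNA CPM in the selected table. Akr1b7 carried 70.8 to 86.4% of this sum, Crisp1 8.88 to 17.3% and Cd52 2.19 to 7.56%, whereas 7 of the 19 genes (Crisp4, Cst8, Lcn5, Lcn8, Pate4, Rnase10 and Wfdc2) had a mean CPM under 1. CPM are counts per 1000000 counts of a library, and mRNA CPM are counts per 1000000 counts on its protein_coding rows. Genes of sperm and spermatids stood at 1481 to 3337 mRNA CPM, of blood cells 462 to 934 and of muscle and stroma 2159 to 6697. Transcripts of other cells were thus present, at lower sums. The lists differ in size and in their leading genes, so the sums do not rank the cell types.

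All 8 vesicle genes were detected, at low levels. Together they drew 173 to 1203 counts per library in the selected table, where each member had a count in every library. In the unselected table they drew 12.0 to 74.3 counts, and Cd63 was at 0 in 3 libraries, Cd9 in 2, Flot2 in 2 and Flot1 in 4 of 10. A limit of 3 counts corresponds to 3.44 to 13.9 CPM there and to 0.822 to 1.60 CPM in the selected table, so the zeros allow levels of that size. These limits cover counting error only.

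The joint level of the 8 genes, all mRNA rows themselves, followed the mRNA share of the library in the selected table. It was 197, 177, 163, 337 and 249 CPM in Control 3, 5, 7, 9 and 11, and 160, 120, 145, 64.6 and 276 CPM in MSUS 2, 4, 6, 8 and 14. The highest library stood 5.23 times above the lowest. Relative to mRNA counts, the same libraries stood at 948, 854, 829, 1067 and 966 mRNA CPM in Control and 967, 905, 990, 863 and 1098 in MSUS, a range of 1.32 times. Without Control 9, Control 11 and MSUS 14 the ranges were 3.05 and 1.19 times. This narrowing was not particular to the 8 genes. Other ESCRT genes together ran from 201 to 864 CPM and from 2553 to 2972 mRNA CPM over the 10 libraries. Genes of vesicle release ran from 123 to 527 CPM and from 1495 to 1713 mRNA CPM. Sperm and spermatid genes did not narrow, at 250 to 549 CPM and 1481 to 3337 mRNA CPM. The groups overlapped on both scales, with means of 225 ± 70.9 CPM in Control and 153 ± 77.9 in MSUS, and of 933 ± 95.1 and 965 ± 89.8 mRNA CPM (SD, n = 5 each). The SD of the joint level over the 10 libraries was 42.1% of the mean on the first scale and 9.36% on the second. The mRNA share itself was 23.7% ± 5.02 in Control and 15.4% ± 6.42 in MSUS, and 4 of 5 MSUS libraries lay below every Control library.

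In the unselected table this narrowing was smaller over the 10 libraries, and without Control 9, Control 11 and MSUS 14 the range widened instead. The joint level ranged 2.33 times in CPM and 1.88 times in mRNA CPM over the 10 libraries (SD 26.9 and 21.5% of the mean), and 1.61 and 1.82 times without Control 9, Control 11 and MSUS 14. The mRNA share there was 10.5% ± 1.73 in Control and 7.48% ± 1.40 in MSUS, again with 4 of 5 MSUS libraries below every Control library. The joint level was 77.9 ± 24.2 CPM in Control and 66.9 ± 13.9 in MSUS, and 730 ± 120 and 907 ± 190 mRNA CPM.

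**Figure D1:**
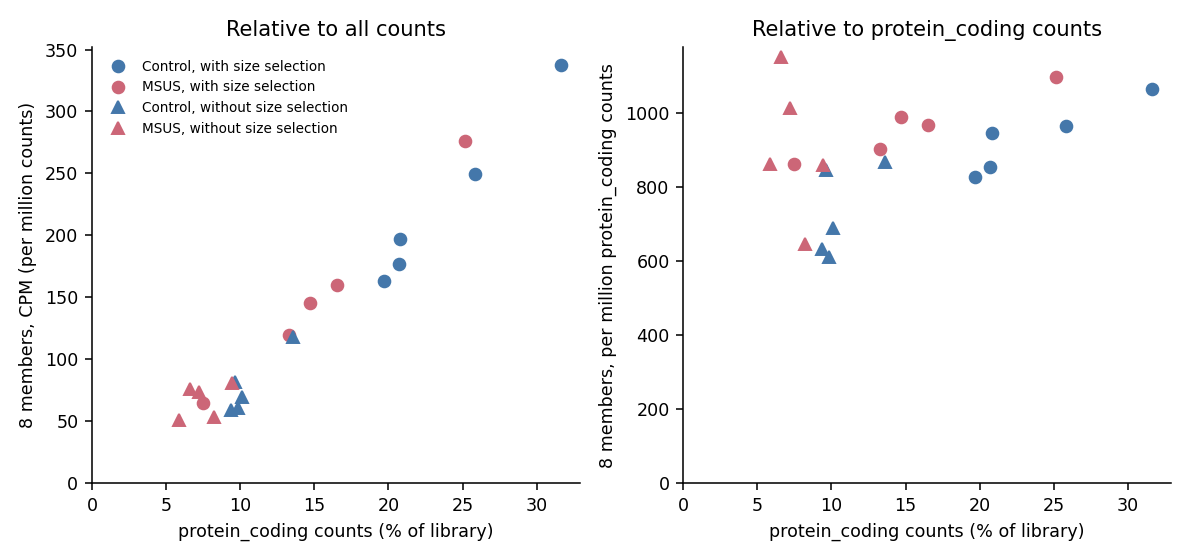
Summed level of the 8 vesicle genes against the percentage of protein_coding counts, one point per library (circles, table labelled with size selection; triangles, without; blue, Control; red, MSUS). Relative to all counts (left) the sum runs from 64.6 to 337 CPM with the mRNA share in the selected table, and relative to mRNA counts (right) from 829 to 1098 mRNA CPM.

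Pdcd6ip was the leading member. It supplied 49.0% ± 2.74 of member counts (SD, n = 10) in the selected table, from 44.6 to 52.5%, and 42.8% ± 10.3 in the other. Its exons cover 5966 bases against 1228 for Cd9, the shortest member. Per kilobase of exon, Pdcd6ip stood at 15.4 ± 6.02 CPM, Tsg101 at 12.9 ± 5.89, Cd81 at 12.2 ± 4.74, Cd82 at 9.25 ± 4.53, Cd9 at 8.96 ± 5.92, Cd63 at 4.04 ± 2.44, Flot1 at 2.27 ± 0.954 and Flot2 at 1.86 ± 0.793 CPM per kb. Pdcd6ip exceeded Tsg101 in 10 of 10 libraries, Cd81 exceeded Cd82 in 10 of 10 and Cd9 exceeded Cd63 in 10 of 10. Tsg101 was above Cd81 in 5 of 10, Cd82 above Cd9 in 7 of 10, Cd63 above Flot1 in 8 of 10 and Flot1 above Flot2 in 6 of 10, so these neighbours changed places between libraries. The late-endosomal tetraspanin Cd63, whose protein is a widely used exosome marker, was thus the lowest tetraspanin mRNA of the 4. Part of this order depended on the length used. Per kilobase of the longest transcript, Pdcd6ip (15.4 CPM per kb) stayed first and Cd63 (5.93) and the flotillins last. Cd81 (13.4), Cd82 (13.3) and Tsg101 (12.9) came close together by that length, with Cd81 above Cd82 in 7 of 10 libraries. All these levels use the protein_coding row alone. That row held 80.5% of the counts of Pdcd6ip but 56.0% of those of Cd81. The order over all transcript types of a gene was not computed and can differ, also in its first place.

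The first 4 members of the unselected table were within 5.20 ± 1.68 (Pdcd6ip) and 4.62 ± 2.41 (Tsg101) CPM per kb, with Cd81 at 4.98 ± 2.98 and Cd82 at 4.93 ± 1.72, and no neighbour among them was higher in more than 7 of 10 libraries. Cd9 followed at 3.50 ± 2.35, Cd63 at 1.25 ± 1.21, Flot2 at 1.13 ± 0.803 and Flot1 at 0.790 ± 0.765 CPM per kb. Pdcd6ip exceeded Cd81 in only 4 of 10 libraries, and per kilobase of the longest transcript Cd82 (7.09) and Cd81 (5.47) stood above Pdcd6ip (5.21). Cd63 and both flotillins were the 3 lowest members in both tables by either length.

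**Figure D2:**
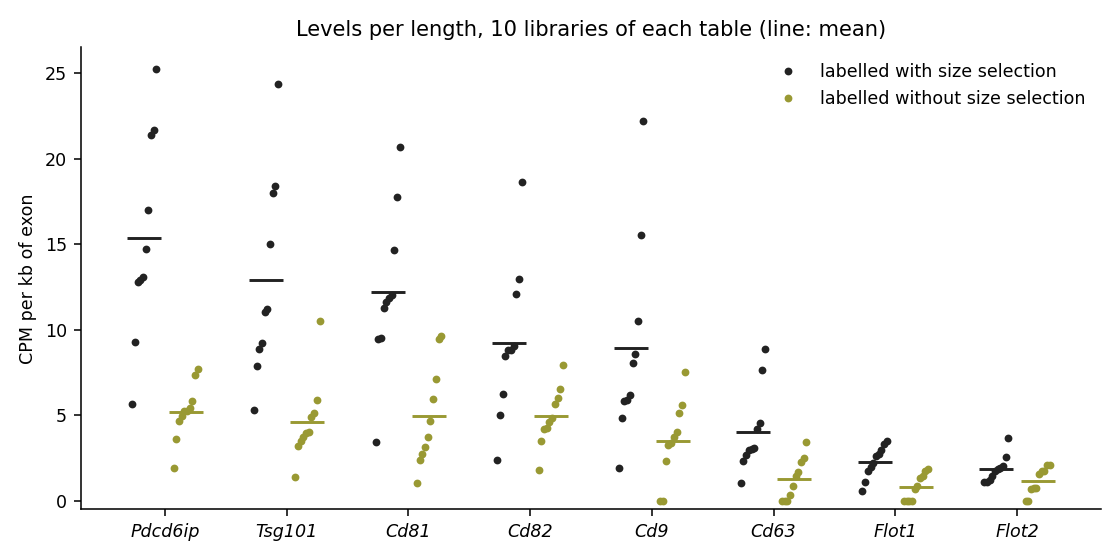
Level of each member's protein_coding row per kilobase of exon (CPM per kb), one point per library and a line at the mean of 10 libraries. By this length Pdcd6ip has the highest mean (15.4 CPM per kb in the selected table, 5.20 in the other, where it is above Cd81 in 4 of 10 libraries), and Cd63, Flot1 and Flot2 are lowest in both tables.

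For 7 of the 8 genes, a part of the counts sat on transcript types other than protein_coding. The protein_coding row held 100% of the counts of Cd63, 89.0% of Cd82, 81.9% of Tsg101, 80.5% of Pdcd6ip, 77.7% of Cd9, 65.3% of Flot1, 62.4% of Flot2 and 56.0% of Cd81 in the selected table. The remaining 44.0% of Cd81 was a retained_intron row. Estimated counts of single rows were mostly fractional, whereas the sum over the types of a gene was whole (within 0.02) in 10 of 10 libraries for Cd82, Flot1 and Flot2 and in 9 of 10 for Cd81 and Pdcd6ip. For Tsg101 this held in 1 of 10, for Cd9 in 2 and for Cd63 in 4 of 10 libraries, the 3 genes with pseudogene copies.

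The design asks if early-life stress leaves a trace in the vesicle RNA of adult males. No member passed the test of MSUS against Control after adjustment over all features of the selected table, and Flot2 came closest. All 8 passed the filter on low counts, and 0 passed the edgeR quasi-likelihood test, as did 0 of all 10998 features (0%; 640 features at an unadjusted p under 0.05; 0 called by DESeq2 and 0 by limma voom). Log2 fold changes were positive for 5 members and negative for 3, with a median of +0.02 (−0.00 over all features tested). They are relative to TMM scaling, which sets the bulk of features equal. Scaled to library totals alone, the median of all features was −0.57, and 1 of 8 members was positive. In CPM, 4 of 5 MSUS libraries lay below every Control library for Pdcd6ip and for Tsg101, as they did for the mRNA share.

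Among the tetraspanins, log2 fold changes were +0.04 for Cd9 (SE 0.27), +0.05 for Cd63 (SE 0.24), +0.13 for Cd81 (SE 0.13) and −0.13 for Cd82 (SE 0.15). Their adjusted p ranged from 0.954 to 1.00 by edgeR. Cd81, which pairs with other tetraspanins and integrins, stood at 91.0, 96.4, 99.0, 110 and 95.5 mRNA CPM in Control 3, 5, 7, 9 and 11 and 123, 121, 108, 77.3 and 119 in MSUS 2, 4, 6, 8 and 14. Of the 5 MSUS libraries, 3 lay above every Control library and MSUS 8 below every one. Cd9 stood at 50.7, 34.8, 30.0, 86.1 and 50.1 mRNA CPM in Control and 59.8, 54.0, 51.8, 31.7 and 75.9 in MSUS, so Control 9 and MSUS 14 were the highest of their groups. Cd63 was highest in the same animals, at 32.8, 23.2, 25.0, 45.6 and 28.7 in Control and 30.6, 32.6, 25.9, 22.5 and 49.4 in MSUS. Cd82, a tetraspanin known as a suppressor of metastasis, ranged from 111 to 154 in Control and from 83.9 to 140 in MSUS.

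In the selected table the ESCRT members varied little between animals relative to mRNA counts, as did Cd81 (104 ± 14.7 mRNA CPM, SD, n = 10) and Cd82 (118.45 ± 20.45). The flotillins, with the fewest counts, had wider relative spreads, at 24.3 ± 7.35 for Flot1 and 27.3 ± 10.3 for Flot2. Other genes of like count were not compared, so a small spread is not shown to be a trait of the ESCRT members. The unselected table had wider spreads, 347 ± 109 for Pdcd6ip and 108 ± 76.4 for Tsg101. The values that follow are of the selected table. Pdcd6ip stood at 487, 424, 396, 476 and 494 mRNA CPM in Control and 465, 417, 519, 450 and 513 in MSUS, means of 455 ± 43.1 and 473 ± 43.3 (SD, n = 5 each). The groups overlapped over most of their range. Its log2 fold change was +0.01 (SE 0.11, edgeR adjusted p = 1.00), with a 95% interval of −0.21 to +0.22. Tsg101 stood at 141, 105, 109, 150 and 136 in Control and 105, 116, 122, 138 and 143 in MSUS, a log2 fold change of −0.11 (SE 0.13, interval −0.37 to +0.15, edgeR adjusted p = 0.975).

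The flotillins were the 2 lowest members. Flot2 stood at 14.1, 26.2, 19.7, 22.1 and 18.3 mRNA CPM in Control and 31.2, 37.7, 20.03, 44.0 and 39.6 in MSUS. Of the 5 MSUS libraries, 4 were above every Control library, and MSUS 6 lay within them. The log2 fold change of Flot2 was +0.73 (SE 0.20), with a 95% interval of +0.33 to +1.13. It ranked 29 of 10998 features in edgeR, with an unadjusted p of 0.00292, and did not pass after adjustment (adjusted p = 0.837). It rests on 5.80 to 28.9 counts per library, and relative to all counts the difference was smaller, at 4.79 ± 1.54 CPM in Control and 5.27 ± 2.81 in MSUS, with a log2 fold change of +0.14 when scaled to library totals. Flot1, its partner in the same membrane complexes, had a log2 fold change of −0.26 (SE 0.26, edgeR adjusted p = 0.957) and ranged from 19.97 to 37.5 mRNA CPM in Control and from 13.8 to 31.3 in MSUS. Over the members, the groups overlapped for 8 of 8 on either scale. The share over all features was not computed, so this count describes no trait of the members.

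**Figure D3:**
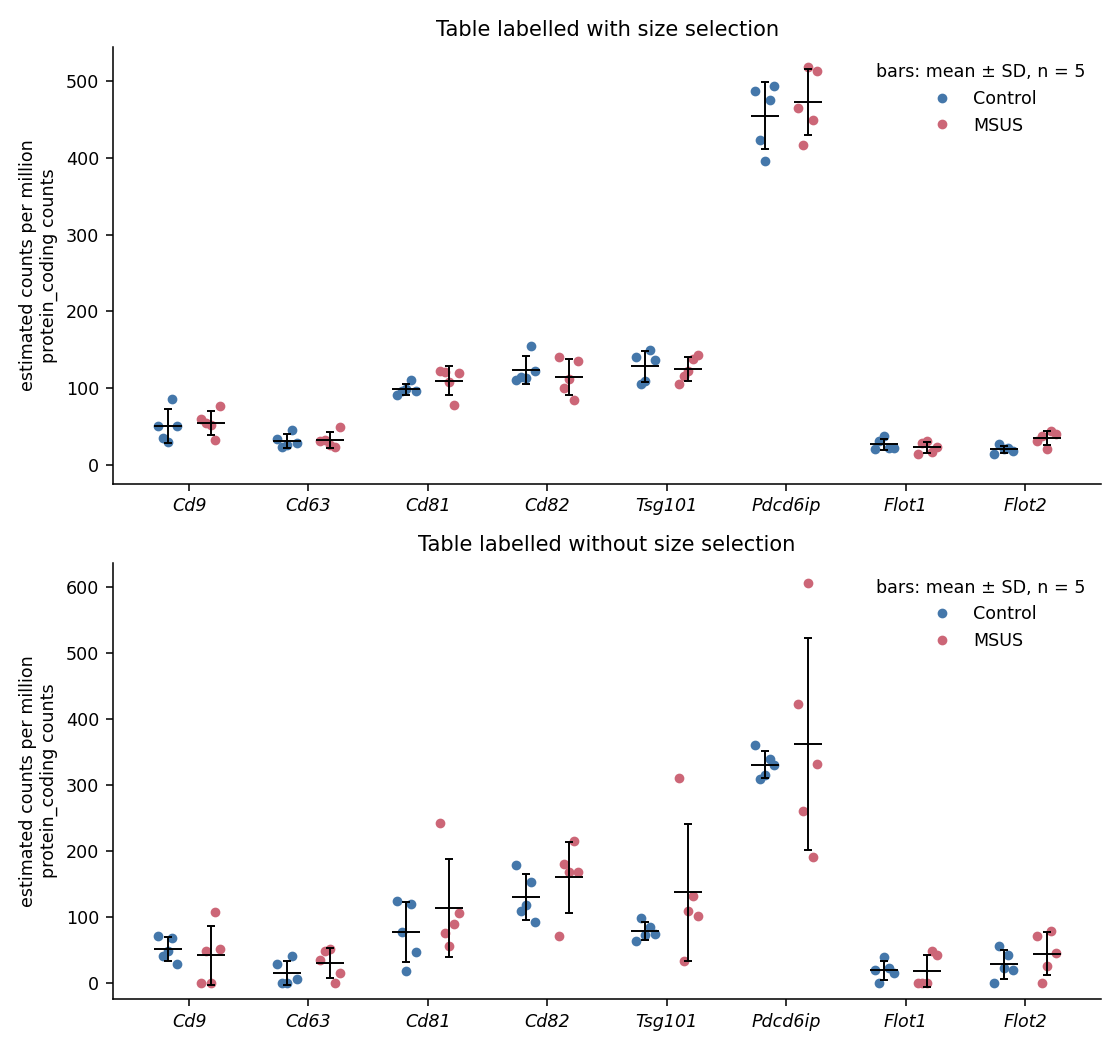
Level of each member in mRNA CPM in the 5 Control (blue) and 5 MSUS (red) libraries, in the selected table (top) and the unselected table (bottom), with mean ± SD. The groups overlap for all 8 members in both tables (share over all features not computed). In the top panel 4 of 5 MSUS libraries exceed every Control library for Flot2.

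Marker lists of epithelium and other cells were summed in the groups of the selected table. Relative to mRNA counts, the 19 epithelial genes summed to 82250 to 109841 mRNA CPM in Control and 61415 to 88654 in MSUS, the 15 sperm and spermatid genes to 1481 to 2286 and 2173 to 3337, the 10 blood cell genes to 462 to 830 and 616 to 934, and the 12 muscle and stroma genes to 2159 to 4277 and 2892 to 6697. Akr1b7 made up most of the epithelial sum, and without it the sum was 13753 to 21279 mRNA CPM in Control and 13280 to 20700 in MSUS. Of 10 epithelial genes tested 4 had positive and 6 negative log2 fold changes (median −0.03). Sperm and spermatid genes were positive in 13 of 13 cases (median +0.50), with 4 at an unadjusted edgeR p under 0.05. Muscle and stroma genes were positive in 11 of 12 (median +0.34) and blood cell genes in 3 of 3 (median +0.20). Over all features tested, 49.6% were positive. In each of these lists 0 genes passed after adjustment. Relative to all counts, sperm and spermatid genes ran from 292 to 549 CPM in Control and from 250 to 547 in MSUS. None of these genes was at 0 in all libraries of the selected table. Their part in the values of the vesicle genes was not tested. In such bulk preparations, fewer vesicles of a type and less RNA per vesicle cannot be told apart.

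Only Pdcd6ip passed the filter in the unselected table. It stood at 34.8, 31.3, 29.6, 46.1 and 32.5 CPM in Control and 27.9, 21.4, 43.8, 11.3 and 31.3 in MSUS, and its log2 fold change was +0.00 (SE 0.16, interval −0.32 to +0.32, edgeR adjusted p = 0.998). MSUS 8, with 2.67 counts, was the lowest library. Of all 1075 features tested there, 0 passed in edgeR (0%; 84 at an unadjusted p under 0.05; 0 by DESeq2 and 0 by limma voom). The other 7 members were compared by exact two-sided permutation tests of CPM, in which 5 animals against 5 cannot go below 0.00794. The smallest exact p was 0.183, for Cd9, which averaged 5.55 ± 2.53 CPM in Control and 3.05 ± 2.91 in MSUS, and all 7 adjusted values were 1. Flot2 averaged 3.07 CPM in both groups in that table (log2 ratio +0.00). In mRNA CPM it averaged 27.9 ± 21.5 in Control and 43.9 ± 32.5 in MSUS (log2 ratio +0.66, exact permutation p = 0.365), with 2 of 5 MSUS libraries above every Control library. It had only 0 to 3.60 counts per library there. Tsg101 averaged 78.8 ± 13.4 mRNA CPM in Control and 137 ± 104 in MSUS (exact permutation p = 0.246), with 4 of 5 MSUS libraries above every Control library and MSUS 4 below. These Tsg101 values rest on only 1 to 7.20 counts per library, and its log2 fold change in the selected table was −0.11.

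The interaction of condition and table asked whether the MSUS effect differed between the runs. Of 8109 features in the joint edgeR fit 0 passed (0%; 225 at an unadjusted p under 0.05). The 5 members kept, Cd9, Cd81, Cd82, Tsg101 and Pdcd6ip, had differences between −0.53 (Tsg101, SE 0.42) and +0.05 (Cd9, SE 0.85), each with an edgeR adjusted p of 1.00.

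Between the tables, both ESCRT members took a larger share in the one labelled with size selection. Pdcd6ip was higher by a log2 of +0.56 (SE 0.13, edgeR adjusted p = 0.00131) and Tsg101 by +0.69 (SE 0.20, adjusted p = 0.00823). Relative to mRNA counts, Pdcd6ip was higher there in 9 of 10 animals, at 464 ± 41.7 against 347 ± 109 mRNA CPM, and Tsg101 in 9 of 10, at 126 ± 17.0 against 108 ± 76.4. Cd81 (+0.52, SE 0.23, adjusted p = 0.0790), Cd9 (+0.44, SE 0.39, adjusted p = 0.407) and Cd82 (−0.08, SE 0.18, adjusted p = 0.945) did not pass. So 2 of 5 members tested were called higher and 0 lower, where 18.6% of all 8109 features were called higher and 16% lower. The median was +0.52 for the members and +0.10 over all features. These SEs and p-values take no account of the pairing of the 2 runs of an animal. With the animal as a block, edgeR gave +0.59 for Pdcd6ip (adjusted p = 0.00029) and +0.73 for Tsg101 (adjusted p = 0.0068).

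The calls of this comparison depended on the scaling and on which animals were kept. Scaled to library totals, where the median of all features was +1.02, 5 of 5 members were called higher, from +0.83 for Cd82 to +1.57 for Tsg101. Most of all 8109 features were also called under that scaling, in either direction (count in the last section). The 5 calls therefore show no trait of the members. Without Control 9, Control 11 and MSUS 14 none of the 5 passed (Pdcd6ip +0.46, adjusted p = 0.0736; Tsg101 +0.53, adjusted p = 0.259). Both log2 values stayed positive. These animals also had the deepest libraries of the unselected table, at 629736, 871461 and 713210 counts, where the others had 215231 to 539945. Leaving them out thus removes depth and animals together, and which of these the lost calls follow was not tested. Without Control 9 alone Cd81 passed as well (+0.67, edgeR adjusted p = 0.0467). Cd63, Flot1 and Flot2 were not kept in the joint fit.

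**Figure D4:**
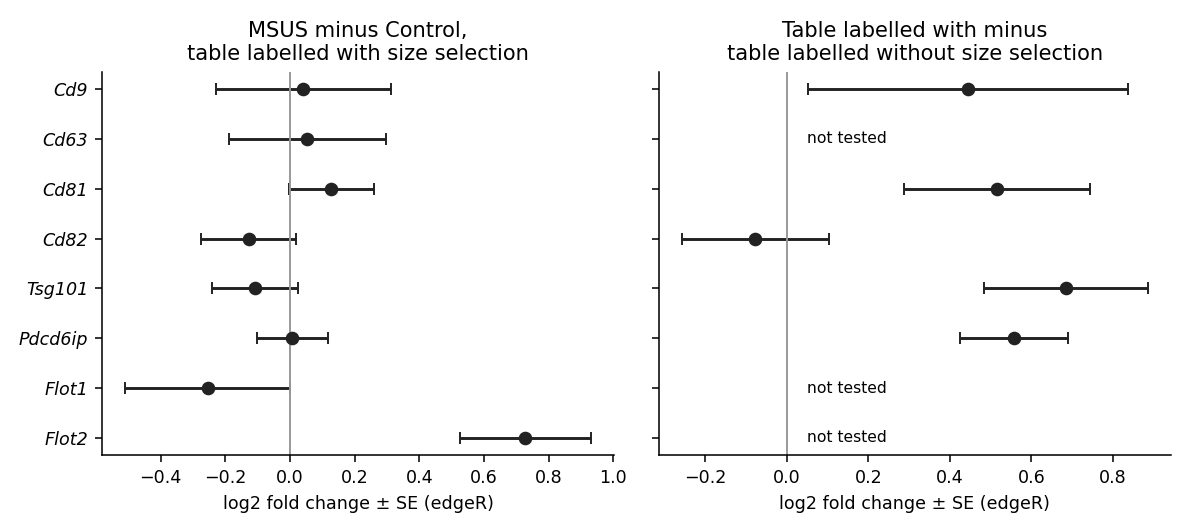
Log2 fold changes of the members with their standard errors by edgeR, for MSUS minus Control in the selected table (left) and for the table labelled with minus the one labelled without size selection (right). On the left Flot2 (+0.73) stands furthest from 0 and does not pass the adjusted test, and on the right Pdcd6ip and Tsg101 pass it.

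In CPM the members of the selected table rose and fell together across libraries, and relative to mRNA counts most did not. There, log2 CPM of the 28 pairs of members correlated across the 10 libraries with a median Pearson r of 0.905, from 0.380 to 0.975. Of these, 22 of 28 pairs had an adjusted permutation p under 0.05. The level is near that of mRNA rows in general, as Pdcd6ip had a median r of 0.885 with 7437 genes. The permutations take no account of the shared mRNA share. How many pairs of other genes would pass was not computed, so the 22 pairs show no trait of the members. Relative to mRNA counts the median of the 28 pairs was 0.126, from −0.372 to 0.903, and 1 of 28 pairs passed. That pair was Cd9 and Cd63 (r = 0.903, permutation p = 0.00036, adjusted p = 0.0101 over 28 pairs; Spearman rho = 0.842, permutation p = 0.00389). Leaving out Control 7 and Control 9, the 2 libraries furthest from the median of Cd9, gave r = 0.890, and the 7 libraries other than Control 9, Control 11 and MSUS 14 gave r = 0.815 (Spearman rho = 0.643). Both genes also share words with pseudogenes, which was not tested as a source of the relation. How many pairs of other genes correlate as closely relative to mRNA counts was not computed either. The relation therefore shows no trait of this pair. In the unselected table the median r of the 28 pairs was 0.068 in CPM (from −0.505 to 0.775) and −0.072 in mRNA CPM (from −0.810 to 0.785).

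The genes nearest to Pdcd6ip in their log2 CPM over the 10 libraries of that table were Nedd4 (r = 0.996), an E3 ubiquitin ligase, Vapa (r = 0.995), a protein of contacts between the endoplasmic reticulum and other membranes, and Supt16 (r = 0.995), a histone chaperone. The median over 7437 genes was itself 0.885, and 3236 genes had r above 0.9. In the other table they were Aldh2 (r = 0.952), Fhl1 (r = 0.944) and Abcb5 (r = 0.938), over 754 genes with a median of 0.456. These values are descriptions, and all points share library depth and composition.

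The wider vesicle machinery gave the same count of calls between MSUS and Control as the members, 0 in each list. In the selected table, 8 of 25 other tetraspanins were tested, 2 positive and 6 negative with a median log2 fold change of −0.11. Tspan13 had the smallest p among them (−0.40, SE 0.26, edgeR adjusted p = 0.885), and Cd151, the tetraspanin partner of laminin-binding integrins, was the most abundant, at 10.97 ± 4.10 CPM per kb (−0.01, SE 0.14). Of 30 other ESCRT genes 25 were tested, 9 positive and 16 negative with a median of −0.03. The ESCRT-III subunit Chmp5 led them, at 44.4 ± 18.9 CPM per kb (−0.01, SE 0.14), above Pdcd6ip (15.4), and Stam2 of ESCRT-0 had the smallest p (−0.20, SE 0.14, adjusted p = 0.895).

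Of 21 genes of vesicle release 13 were tested, 6 positive and 7 negative. Rab7, the late-endosomal GTPase, stood at 31.0 ± 12.8 CPM per kb (−0.13, SE 0.10), and Arf6, a GTPase of plasma membrane traffic, had the smallest p (+0.29, SE 0.13, edgeR adjusted p = 0.842). Of 25 genes of vesicle cargo and membrane rafts 19 were tested, 10 positive and 9 negative. Msn, which ties membrane proteins to actin, had the smallest p (+0.43, SE 0.15, edgeR adjusted p = 0.837), and the chaperone Hsp90ab1 was the most abundant at 247 ± 84.9 CPM per kb (+0.01, SE 0.16). A list of 16 genes, mostly of organelles outside vesicles, was tested in full, 8 positive and 8 negative. Eef2, a translation elongation factor of the cytosol and not of an organelle, was its most abundant gene at 212 ± 68.8 CPM per kb (−0.01, SE 0.16). The endoplasmic reticulum chaperone Calr had the smallest p (+0.20, SE 0.13, edgeR adjusted p = 0.882). Eef2 and Hsp90ab1 fragments were thus more abundant per length than those of any of the 8 members.

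None of the other tetraspanin or ESCRT genes passed the filter in the unselected table. Cd151 (6.88 ± 4.64 CPM per kb), Chmp2a (15.3 ± 10.9) and Arf6 (11.6 ± 6.54) were the most abundant of their lists there. Of the genes tested there, cargo and raft genes were negative in 8 of 8 cases and genes of the organelle list, Eef2 included, in 7 of 8. Of all 517 protein_coding rows tested, 20.5% were positive (median log2 −0.20). Of the 33 rows at an unadjusted edgeR p under 0.05, 0 were higher in MSUS. Rab7 had a log2 fold change of −0.09 (SE 0.29), Ezr, a relative of Msn, of −0.38 (SE 0.23), Hsp90ab1 of −0.16 (SE 0.20), Eef2 of +0.08 (SE 0.21) and Golgb1, a large Golgi protein, of −0.62 (SE 0.27, edgeR adjusted p = 0.563). Between the tables, 4 of 23 other ESCRT genes tested were called higher in the one labelled with size selection and 1 lower (median log2 +0.39), and 0 and 1 of 7 other tetraspanins (median −0.38), beside 18.6% higher and 16% lower over all features.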

How the data were processed

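The authors deposited estimated counts per annotated RNA in 2 tables, one per sequencing run. Per the submitters' processing notes, STAR and edgeR were used with build GRCm38. The rule that assigned reads to RNAs was not given in the sources used here. Samples were grouped by their titles. CPM are relative to a library's total and mRNA CPM to its protein_coding rows. Exon lengths, positions and sequences came from GENCODE vM21 on GRCm38. Counts were rounded and tested with edgeR 4.0.16 in R 4.3.3 (filterByExpr, TMM, robust quasi-likelihood, Benjamini-Hochberg over all features, threshold 0.05), which was tested on simulated data. SEs derive from the F statistic, and 95% intervals are normal approximations. limma 3.58.1, DESeq2 1.42.0, other scalings and omitted animals were alternatives. Depth limits precision most in the unselected table.

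The labels give the same libraries in both runs, so animal numbers pair the tables. Over 516 features, an animal's deviations from its group means in one table correlated with its own in the other at 0.171 to 0.466, above its correlation with any other animal in 10 of 10 cases. Named genes are the 8 members, the most abundant gene and the one with the smallest p of each list, and the 3 genes nearest to the leading member. Members and lists were chosen with earlier results of these data known. Pair correlations used log2 of CPM + 1 or of mRNA CPM + 10, with 100000 permutations.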

Additional observations from a re-analysis of the deposited data

Results flagged for a closer look

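The Cd63 level of Control 9 in the selected table, 14.44 CPM, stood far above the other 4 Control libraries, of which the next was 7.401 CPM. It was the only one of 32 groups of 5 values (8 members, 2 tables, 2 conditions) in which a sample stood apart from the rest by Dixon's test at 95%, and chance flags about 1 group in 20. Control 9 also had the highest mRNA share of that table (31.6%), and relative to mRNA counts its Cd63 level was 45.6 mRNA CPM against 32.8 in the next Control library. MSUS 14 was higher still on that scale, at 49.4.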

How the results depend on the processing

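The counts of features called between MSUS and Control stayed at 0 except for the following. In the selected table they were 3 scaled to library totals, 48 with no filter (40 higher and 8 lower) and 0 to 2 with one animal left out (2 without Control 3). In the other they were 1 scaled to library totals and 2 without Control 9, Control 11 and MSUS 14. No member was among the calls under any alternative for MSUS against Control. Between both runs, 2804 features were called, against 6230 scaled to library totals, 1325 with protein_coding features only, 8182 with no filter and 1687 without the 3 animals. The replicate block (animal) gave 3027, with the same 2 members called, and 0 for the interaction, so it changed no member's call. Cd9 and Cd81 were also called between the tables with no filter. The cause of these shifts was not tested.

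Signs near 0 turned often. In the selected table, scaling to library totals gave log2 fold changes of −0.50 for Cd9, −0.49 for Cd63, −0.42 for Cd81, −0.55 for Pdcd6ip, −0.55 for Chmp2a, −0.28 for Arf6, −0.47 for Ezr, −0.58 for Hsp90ab1, −0.17 for Msn and −0.35 for Calr. No filter gave −0.023 for Cd9, −0.011 for Cd63, −0.078 for Pdcd6ip, −0.073 for Chmp2a and −0.085 for Hsp90ab1. DESeq2 gave −0.012 for Pdcd6ip and Chmp2a and −0.018 for Hsp90ab1. Protein_coding features only gave +0.024 for Cd151, +0.023 for Eef2 and +0.017 for Chmp5, and leaving out the 3 animals +0.11 for Chmp5. With one animal left out, Cd9 ran from −0.16 to +0.39 (highest without Control 9, lowest without MSUS 14), Cd63 from −0.25 to +0.31 (likewise), Pdcd6ip from −0.026 to +0.048, Cd151 from −0.097 to +0.067, Chmp2a from −0.095 to +0.094, Hsp90ab1 from −0.028 to +0.038, Eef2 from −0.048 to +0.036 and Chmp5 from −0.11 to +0.081. In that table Flot2 was positive under each alternative that kept it, from +0.63 to +0.84 with one animal left out and +0.14 scaled to library totals, but the filter did not keep it without the 3 animals.

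In the unselected table, Pdcd6ip was −0.28 scaled to library totals, −0.071 with no filter, −0.058 by voom, −0.014 unrounded, −0.069 with transcript types summed, −0.075 without the 3 animals and −0.29 to +0.082 with one left out. Eef2 was −0.17 scaled to library totals and −0.041 without the 3 animals. Protein_coding features only gave +0.042 for Rab7, +0.062 for Hsp90ab1 and +0.11 for Calr, and Calr was +0.043 by DESeq2, +0.014 with types summed and +0.062 without the 3 animals. With one animal left out Rab7 ran from −0.25 to +0.16 and Calr from −0.25 to +0.15. The log2 ratios of mean CPM were +0.30 (TMM), +0.56 (mRNA counts) and +0.13 (without the 3 animals) for Cd81 and +0.069 (TMM) and +0.30 (mRNA counts) for Cd82. With one animal left out they ran from −0.41 to +0.34 for Cd81, −0.32 to +0.00065 for Cd82, −0.26 to +0.45 for Tsg101 and −0.32 to +0.35 for Flot2.

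Between the tables Cd82 was +0.83 scaled to library totals and +0.51 with no filter. For the interaction, Cd9 was −0.17 scaled to library totals and Cd81 +0.019 with no filter, and with one animal left out Cd9 ran from −0.29 to +0.40, Cd81 from −0.44 to +0.17 and Pdcd6ip from −0.15 to +0.24. Summed transcript types, TMM and mRNA scaling of the ratios were chosen after seeing the data. Low counts limit the 7 members below the filter in the unselected table.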
